A study of Homo sapiens with 19 samples.

Results

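The regions described here are the 917 places where OCT-2 bound in 231-D, a metastatic derivative of the breast cancer line MDA-MB-231: every region of the deposited peak list for these cells, among 8611 regions on assembled chromosomes in all 10 lists. All regions of that list were taken, with no further choice by a measured value. OCT-2 is a transcription factor of the POU family, encoded by POU2F2 and best known from B lymphocytes, where it binds octamer elements of promoters and enhancers. Superenhancers are long stretches of chromatin with dense H3K27 acetylation, a mark of active enhancers and promoters, and they often lie at genes that set a cell's identity.

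The series holds 19 ChIP-seq samples of human triple-negative breast cancer lines, of which 4 were precipitated with an antibody against OCT-2, 12 with one against H3K27ac, and 3 are inputs. 231-D is MDA-231-D, a highly metastatic clone derived from MDA-MB-231 that carries luciferase as its transgene. The labels of its 2 OCT-2 samples call the OCT-2 endogenous and also describe the cells as polyclonal with stable transgene expression, so these samples are named both a clone and a polyclonal population. Superenhancers came from 231-D and from its parent 231Pa (MDA-MB-231, no transgene), with 2 H3K27ac replicates each, and were listed by the authors as 225 regions specific to 231-D, 158 specific to 231Pa and 183 common to both. Superenhancers of a second line came from MDA-MB-436_Luc2, which is MDA-MB-436 with luciferase, and from MDA-MB-436_Luc2_No3a, a polyclonal culture grown from its xenograft, with 97 regions specific to the former, 116 specific to the latter and 324 common. For scale, 5736 OCT-2 peaks were measured in the same way from 231Pa_Luc+OCT-2, polyclonal 231Pa cells with luciferase and POU2F2 transgenes. No source used here says whether replicates were separate cultures.

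All positions of 231-D peaks are hg19, 1-based. The lists hold positions only, so the depth behind a peak and its height are unknown, and no value per replicate could be given. A region is therefore the unit of every count and test, and intervals are 95% intervals that cover counting error only and treat regions as independent. No gene is assigned to a peak, because the annotation at hand is of hg38. The MDA-MB-436 lists name no build and were read as hg19, so every count with them rests on that reading.

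The OCT-2 peaks of 231-D were narrow, and in most of them the 2 calls merged into a peak lay close together. The 917 peaks were 222 to 428 bp wide, with a median of 242 bp (quartiles 227 and 272 bp). Every peak's name counts 2 merged calls, taken here as 1 from each replicate, which the names do not state. Calls of 2 fixed widths, 222 and 210 bp, were inferred from these same peaks. The wider width was set to that of the narrowest peak, 222 bp. The narrower was set from the mean distance between the named centre and the middle of wider peaks. That centre lay to one side of the middle by 2.5 to 3 bp in 407 peaks. It lay 3 to 3.5 bp to the other side in 368. No peak reached the calls' sum of 432 bp, which follows if only overlapping calls were merged. These values are thus no separate check of the inferred widths. Read in this way, a peak's width gives the distance between its 2 calls.

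That distance was small for most peaks. The centres of the 2 calls lay a median of 26 bp apart (quartiles 11 and 56 bp), and 657 peaks (71.6%) had them within 50 bp. In 142 peaks (15.5%) one call lay wholly inside the other, which puts their centres at most 6 bp apart. At the other end, 71 peaks (7.74%) had centres more than 105 bp apart, a distance above 50% of the width of the narrower call. Those of 231Pa_Luc+OCT-2, read in the same way from calls of 238 and 230 bp, had a median distance of 33 bp, with 64.1% within 50 bp. Because only overlapping calls were merged and deposited, neither figure says how many calls of one replicate had no partner in the other.

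**Figure D1:**
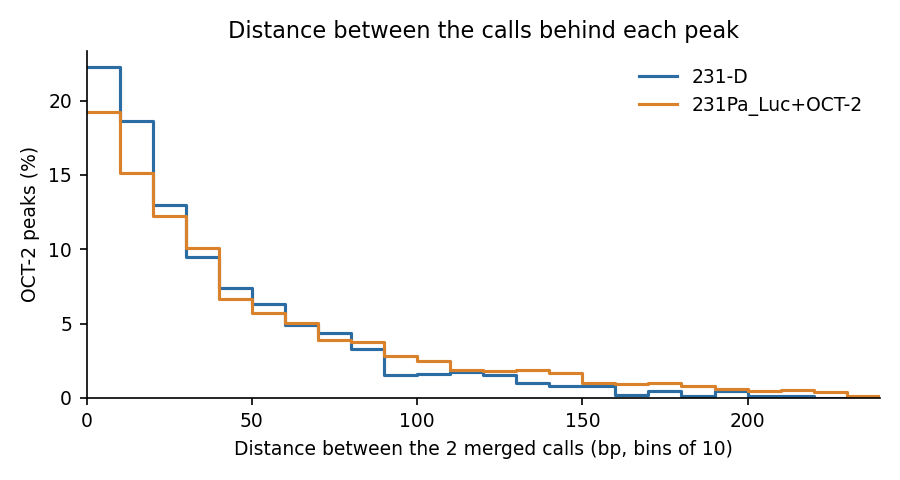
Share of OCT-2 peaks (y axis, %) by the distance between the centres of the 2 calls merged into them (x axis, bp, bins of 10), for 231-D (blue) and 231Pa_Luc+OCT-2 (orange); nested calls are placed at their upper limit. Both lists fall from a maximum in the first bin, with medians of 26 and 33 bp.

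The widest 231-D peaks, whose 2 calls barely overlapped, lay on chromosome 6 (43138501 to 43138928, 428 bp, and 72188419 to 72188840, 422 bp), chromosome 10 (94000203 to 94000614, 412 bp), chromosome 14 (54902290 to 54902701, 412 bp) and chromosome 4 (172956785 to 172957193, 409 bp). Their calls were 193 to 212 bp apart. Of these 5, only the second lay in a superenhancer, a 231Pa-specific one. The narrowest peaks cannot be ranked, since 142 share the width of 222 bp. Inside superenhancers of 231Pa or 231-D the median distance between calls was 31 bp over 155 peaks (quartiles 13 and 62 bp), and outside them 25 bp over 762 peaks (quartiles 11 and 54.8 bp). These quartile ranges overlap almost wholly.

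Most OCT-2 peaks of 231-D stood alone. The gap to the nearest other peak had a median of 713 kb (quartiles 214 and 1938 kb), and 534 peaks (58.2%) had a neighbour within 1 Mb (1000 kb). Only 101 peaks (11%) had one within 50 kb and 46 (5.02%) within 10 kb. In 231Pa_Luc+OCT-2 the same gap had a median of 76.9 kb, and 40.3% of peaks had a neighbour within 50 kb. That list is longer, and the ratio of the numbers of peaks was 0.16; more peaks give closer neighbours.

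**Figure D2:**
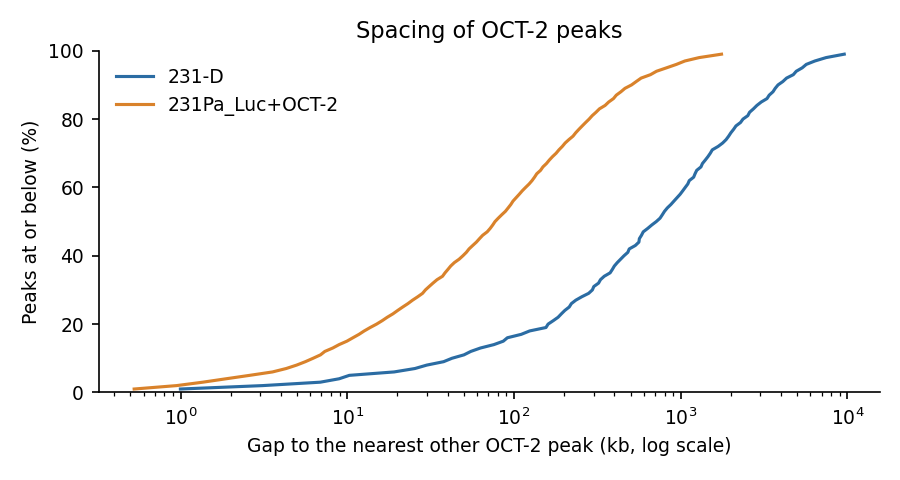
Cumulative share of OCT-2 peaks (y axis, %) by the gap to the nearest other peak of the same list (x axis, kb, log scale), drawn from percentiles 1 to 99. The curve of 231-D (blue) lies to the right of that of 231Pa_Luc+OCT-2 (orange), with medians of 713 and 76.9 kb.

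Joining peaks whose gap was at most 50 kb gave 49 clusters with 101 peaks, of which 46 held 2 peaks and 3 held 3; the other 816 peaks were single. With a gap 4 times smaller there were 24 clusters, all of 2 peaks, and with a gap of at most 100 kb there were 69 clusters with 151 peaks, 3 of which held 4. The clusters lay on 18 of 23 chromosomes, 9 of them on chromosome 1 and 5 on chromosome 8. Peaks in clusters lay in superenhancers of 231Pa or 231-D more often than single ones: 33 of 101 (32.7%, interval 23.7 to 42.7%) against 122 of 816 (15%, interval 12.6 to 17.6%). The intervals do not overlap. Clustered peaks share their surroundings, and this difference was not tested further. By class, clustered peaks were in 231-D-specific regions in 12.9% and in common ones in 17.8%, against 5.51% and 6.5% of single peaks, while 231Pa-specific regions held 1.98% and 2.94%. Even so, most clusters were elsewhere: 14 of 49 lay wholly in such superenhancers, 4 in part, and 31 outside them.

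The clusters of 3 peaks differed in their surroundings. The densest was on chromosome 17 (56708647 to 56736968, 28.3 kb), with gaps of 261 and 27199 bp between its peaks, and no superenhancer of either line held any of them; the nearest of 231Pa or 231-D was 675 kb away. On chromosome 1, a cluster at 45151678 to 45197153 (45.5 kb) lay 43 kb from the nearest superenhancer of 231Pa or 231-D, but 2 of its peaks were in a common MDA-MB-436 one. The third (chromosome 1, 59557986 to 59616822, 58.8 kb) lay wholly in a superenhancer common to 231Pa and 231-D, and 2 of its peaks also lay in a common one of MDA-MB-436.

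The tightest clusters of 2 peaks spanned 0.882 to 2.71 kb. Those at chromosome 1, 65363595 to 65364476, chromosome 19, 6801130 to 6802045, chromosome 8, 26435238 to 26436264, and chromosome 10, 10542999 to 10544654, were in no superenhancer of any list. The one at chromosome 12, 7052667 to 7054169, was in a common MDA-MB-436 superenhancer. Both on chromosome 5, at 73935016 to 73936757 and at 95051580 to 95054291, lay in 231-D-specific superenhancers. Thus 2 of these 7 were at superenhancers of 231-D, and 4 were at none.

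OCT-2 peaks of 231-D were sparse along every chromosome but unevenly spread. The lists span 3009 Mb of hg19 on 23 chromosomes, which gives 0.305 peaks per Mb. Chromosome 19 had the highest density, 37 peaks or 0.626 per Mb (interval 0.441 to 0.863), followed by chromosome 17 with 39 peaks (0.486 per Mb, interval 0.346 to 0.664) and chromosome 5 with 86 (0.476 per Mb, interval 0.381 to 0.588). The lowest were chromosome 21 with 5 peaks (0.107 per Mb, interval 0.0346 to 0.249), chromosome X with 17 (0.111 per Mb, interval 0.0644 to 0.177) and chromosome 18 with 12 (0.154 per Mb, interval 0.0796 to 0.269). The intervals of the highest 3 lie above those of these lowest 3. These chromosomes were taken as the extremes of 23, and the intervals cover counting error only. In windows of 10 Mb the variance of the number of peaks was 2.32 times its mean, more than counting error alone gives. Assembly gaps were not removed from these windows and can raise this value. Measured from the first to the last listed region of each chromosome, chromosome 21 had 0.168 peaks per Mb, above chromosomes X (0.121) and 18 (0.159), so these 3 have no fixed order. Among the highest 3, and likewise among the lowest 3, the intervals overlap. The number of copies of each chromosome in these cells was not known, and no source used here says whether the inputs entered the peak calling.

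**Figure D3:**
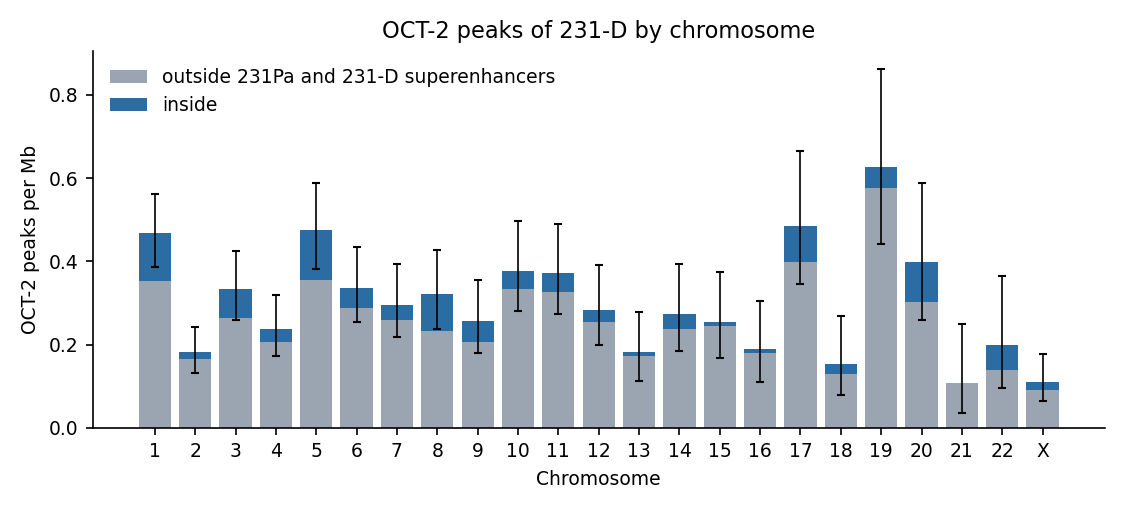
OCT-2 peaks of 231-D per Mb (y axis) on each chromosome (x axis), divided into peaks outside (grey) and inside (blue) superenhancers of 231Pa and 231-D, with exact Poisson 95% intervals of the total. Chromosome 19 is highest at 0.626 per Mb with little blue, and chromosomes 21 and X are lowest at 0.107 and 0.111.

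High density did not always go with a high share of peaks in superenhancers of 231Pa or 231-D. Only 3 of the 37 peaks of chromosome 19 (8.11%) lay in one, whereas chromosomes 1 and 5 had 28 of 114 (24.6%) and 22 of 86 (25.6%). These superenhancers covered less of chromosome 19 (1.71% of its span) than of chromosomes 1 (3.49%) and 5 (2.59%). Common MDA-MB-436 superenhancers held 5 peaks of chromosome 19, 15 of chromosome 1 and 7 of chromosome 5. In the same order, MDA-MB-436_Luc2-specific ones held 3, 3 and 0, and MDA-MB-436_Luc2_No3a-specific ones 2, 3 and 0. Chromosome 8 had 13 of 47 (27.7%), and chromosome 21 had none of 5. Over the 23 chromosomes, peaks per Mb and superenhancers of 231Pa and 231-D per Mb had a Pearson's r of 0.73 and a Spearman's rho of 0.81, and r was 0.69 without the 2 chromosomes farthest from the median. With the peaks inside superenhancers left out, r was 0.64 and rho 0.77. These points share gene density, base composition and copy number, and are given as a description without a test. Relative to 231Pa_Luc+OCT-2, chromosomes 21 and 6 had the lowest counts, 5 peaks in 231-D against 62 (ratio 0.0806) and 57 against 580 (ratio 0.0983), and chromosome 16 the highest, 17 against 51 (ratio 0.333), where the ratio over all chromosomes was 0.16.

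Inside superenhancers, OCT-2 peaks were several times as dense as elsewhere, and denser in those of 231-D than in those only its parent has. The 566 superenhancers of 231Pa and 231-D covered 62.9 Mb, 2.09% of the span, and held 155 of the 917 peaks (16.9%, interval 14.5 to 19.5%), or 2.46 peaks per Mb. The remaining span had 0.259 per Mb, so that the inside was 9.52 times as dense (interval 7.96 to 11.3). Assembly gaps were not removed from the span, here or below, which lowers the density outside and raises this ratio. In 231-D-specific regions the density was 3.17 per Mb (58 peaks, interval 2.41 to 4.1), in common ones 2.6 (71 peaks, interval 2.03 to 3.28) and in 231Pa-specific ones 1.5 (26 peaks, interval 0.983 to 2.21). The ratio of 231-D-specific to 231Pa-specific regions was 2.11 (interval 1.31 to 3.49), and that of common to 231-D-specific regions was 0.819 (interval 0.571 to 1.18). Counting peaks within 10 kb of each other as 1 locus left the first ratio at 2.12 (interval 1.3 to 3.54). The 231Pa-specific regions thus had fewer peaks per Mb than either other class, with intervals of both ratios beyond 1 (common to 231Pa-specific 1.73, interval 1.09 to 2.82), yet more than the span outside.

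Counted as superenhancers with at least 1 peak, common regions came first and 231Pa-specific ones last. The share was 56 of 183 common regions (30.6%), 51 of 225 231-D-specific ones (22.7%) and 23 of 158 231Pa-specific ones (14.6%). Common regions exceeded 231Pa-specific ones by an odds ratio of 2.59 (interval 1.5 to 4.45), with an adjusted p = 0.0015 in a Fisher exact test over 3 comparisons. 231-D-specific regions did not differ from 231Pa-specific ones past the threshold of 0.05 (Fisher exact test, p = 0.0498, adjusted p = 0.072, with an odds ratio of 1.72 and its interval at 1.0 to 2.96), nor common from 231-D-specific ones (Fisher exact test, adjusted p = 0.072, with an odds ratio of 1.5 and its interval at 0.966 to 2.34). A wide region has more room for a peak, and the classes differ in width, with medians of 76.8 kb for 231-D-specific, 101.6 kb for 231Pa-specific and 127 kb for common regions.

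**Figure D4:**
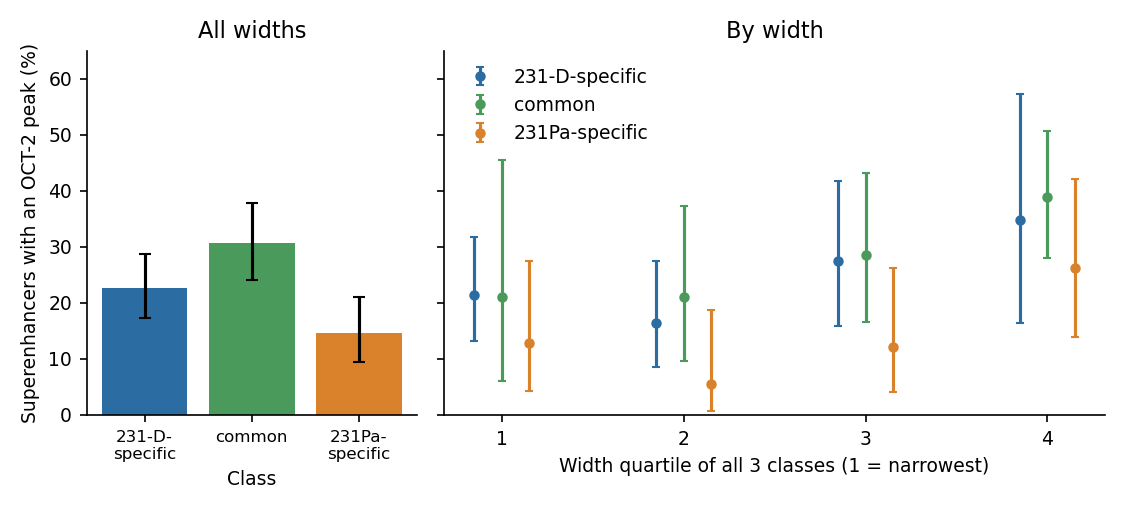
Share of superenhancers with at least 1 OCT-2 peak of 231-D (y axis, %) by class (left) and by class within quartiles of the width of all 566 regions (right, x axis from narrowest to widest), with exact 95% intervals. 231Pa-specific regions (orange) are lowest overall at 14.6% and in each quartile, with overlapping intervals within quartiles.

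Within width quartiles, bounded at 62.3, 97.5 and 138.7 kb, 231Pa-specific regions had the lowest share in each quartile. Among the narrowest, 18 of 84 231-D-specific regions (21.4%) and 5 of 39 231Pa-specific ones (12.8%) held a peak; among the widest, 8 of 23 (34.8%) and 11 of 42 (26.2%) did. Taken over the quartiles, 231-D-specific regions exceeded 231Pa-specific ones (Mantel-Haenszel odds ratio 2.15 with an interval of 1.2 to 3.85, exact conditional test, adjusted p = 0.015). Common regions again exceeded 231Pa-specific ones (odds ratio 2.32, exact conditional test, adjusted p = 0.0093) and did not differ from 231-D-specific ones past the threshold (odds ratio 1.14 with an interval of 0.696 to 1.88, exact conditional test, adjusted p = 0.61). Whether 231-D-specific regions passed the threshold against 231Pa-specific ones thus depended on taking width into account. Superenhancers with a peak were wider than those without among 231Pa-specific (median 137 against 97.5 kb) and common regions (148 against 123 kb), whereas the 231-D-specific ones had medians of 78 and 75.9 kb. In peaks per Mb the narrowest quartile was the densest of each class, with 5.91 per Mb (19 peaks) in 231-D-specific, 4.62 (4 peaks) in common and 2.71 (5 peaks) in 231Pa-specific regions.

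Peaks were not shown to gather at the middle of superenhancers. Of the 155 peaks inside, 85 (54.8%, interval 46.7 to 62.8%) lay in the inner 50% of the region's width; the interval holds the 50% that an even spread gives. The inner share was 56.9% for 231-D-specific, 54.9% for common and 50% for 231Pa-specific regions, with overlapping intervals. The median distance to the nearer edge was 19.1 kb, 40.5 kb and 26.1 kb in the same order of classes, and 17 of the 155 peaks (11%) lay within 5 kb of an edge.

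Only 3 superenhancers of 231Pa and 231-D held 3 or more OCT-2 peaks of 231-D, and all 3 were common to both cells. The richest, on chromosome 8 (128806052 to 129296065, 490 kb), held 4 peaks spread over 349 kb, at 8.16 per Mb; 3 of them also lay in a common MDA-MB-436 superenhancer at 128805779 to 129209768. The region on chromosome 5 (33763143 to 33862276, 99.1 kb) held 3 peaks over 71.1 kb, or 30.3 per Mb, none of them in a superenhancer of MDA-MB-436. The region on chromosome 1 (59473800 to 59641137, 167 kb) held the cluster of 3 described above. One more MDA-MB-436 superenhancer, common to its 2 cell populations, held 3 peaks (chromosome 1, 45172167 to 45286591, 114 kb).

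No specific superenhancer held more than 2 peaks. Among 231-D-specific regions 7 held 2, of which 3 were on chromosome 5. The narrowest of these 7 (chromosome 5, 73917564 to 73945448, 27.9 kb), singled out after its value was seen, had the highest density at 71.7 peaks per Mb, its 2 peaks being 1213 bp apart. The other 2 of chromosome 5 were at 95041372 to 95118133, with peaks 2.21 kb apart, and at 150399984 to 150503427, with peaks 33.8 kb apart. Among 231Pa-specific regions 3 held 2 peaks, on chromosome 22 (37623820 to 37755614), chromosome 6 (26020378 to 26128030) and chromosome 8 (94833954 to 95031910), with peaks 68.2, 9.75 and 51.9 kb apart. These regions were named with their peaks known, and each rests on 2 peaks.

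The MDA-MB-436 superenhancers, from a line in which no OCT-2 ChIP was analysed here, also held more 231-D peaks per Mb than the span outside all lists. They held 108 of the 917 peaks (11.8%), 80 of them in the 324 common regions, 17 in the MDA-MB-436_Luc2-specific and 11 in the MDA-MB-436_Luc2_No3a-specific ones. Of these 108, 61 lay also in superenhancers of 231Pa or 231-D and 47 did not. By density, sequence in superenhancers of both lines had 2.98 peaks per Mb (interval 2.28 to 3.83), sequence in those of 231Pa and 231-D alone 2.21 (94 peaks, interval 1.79 to 2.71), sequence in those of MDA-MB-436 alone 1.54 (interval 1.13 to 2.05) and the rest 0.245 (715 peaks, interval 0.228 to 0.264). Neighbouring intervals among the first 3 overlap, the first lies above the third, and the last lies below all others.

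The share of peaks in regions used by both lines differed by class, as did the share of the regions themselves. Of peaks in common superenhancers of 231Pa and 231-D, 39 of 71 (54.9%, interval 42.7 to 66.8%) were also in one of MDA-MB-436, against 18 of 58 (31%, interval 19.5 to 44.5%) in 231-D-specific and 4 of 26 (15.4%, interval 4.36 to 34.9%) in 231Pa-specific regions. The regions themselves met MDA-MB-436 superenhancers in the same order, 104 of 183 (56.8%), 91 of 225 (40.4%) and 21 of 158 (13.3%). Each of these shares lies within the interval of the peak share of its class. The peaks were thus not shown to depart from the regions that hold them. The interval of peaks in 231-D-specific regions overlaps both others, and the peak shares were not tested. Among 231-D-specific regions, those that met one held a peak in 18.7% (17 of 91, interval 11.3 to 28.2%) and those that did not in 25.4% (34 of 134, interval 18.3 to 33.6%). Among common regions the shares were 35.6% (37 of 104) and 24.1% (19 of 79), again with overlapping intervals. When only regions apart from MDA-MB-436 were compared, a setting added after seeing the data, 24.1% of common and 14.6% of 231Pa-specific regions (20 of 137) held a peak, and the difference no longer passed the threshold (odds ratio 1.85, Fisher exact test, adjusted p = 0.15).

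Most peaks lay outside the listed superenhancers. In all, 762 peaks (83.1%, interval 80.5 to 85.5%) lay outside those of 231Pa and 231-D, and 715 (78%, interval 75.1 to 80.6%) in no superenhancer of either line. The 762 were a median of 1302 kb from the nearest region of 231Pa or 231-D (quartiles 465 and 3474 kb), and 441 of them (57.9%) more than 1 Mb (1000 kb) away. With both lines' superenhancers counted, the 715 were a median of 929 kb from the nearest (quartiles 329 and 2678 kb), and 346 of them (48.4%) were more than 1 Mb away. Over all 917 peaks, those inside included, that median was 526 kb. By class, the median distance of peaks outside it was 3.65 Mb to 231-D-specific, 4.16 Mb to common and 6.69 Mb to 231Pa-specific regions; the classes hold 225, 183 and 158 regions, and more regions give shorter distances. To MDA-MB-436 superenhancers it was 3.7 Mb for common, 11.1 Mb for MDA-MB-436_Luc2-specific and 11.4 Mb for MDA-MB-436_Luc2_No3a-specific ones. A few chromosomes hold no region of a class, which left 38 peaks without a distance for common, 17 for 231Pa-specific, 47 for MDA-MB-436_Luc2-specific and 22 for MDA-MB-436_Luc2_No3a-specific regions. Peaks in no superenhancer had a median width of 241 bp, close to the 247 bp of those inside superenhancers of 231Pa or 231-D, and 60 of the 715 (8.39%, interval 6.46 to 10.7%) had another peak within 50 kb, against 33 of 155 (21.3%, interval 15.1 to 28.6%) inside.

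The peaks farthest from superenhancers of 231Pa and 231-D were on chromosomes 13 and X. They lay at chromosome 13, 76030540 to 76030833 (30.2 Mb away), chromosome 13, 21748947 to 21749197 (23.1 Mb), chromosome X, 71492850 to 71493071, and 71463462 to 71463695 (both 23 Mb), and chromosome 13, 68418778 to 68419046 (22.6 Mb). Chromosome 13 has only 3 such superenhancers and chromosome X 10. The 2 peaks on chromosome X were neighbours, with 29154 bp between them, and the MDA-MB-436 superenhancers were also remote, at 17.8 to 72.1 Mb from these 5 peaks.

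Outside superenhancers the density was lower at long than at short distances, apart from the first 10 kb, where few peaks were counted. Bands around one set of superenhancers include any superenhancers outside that set. Around those of 231-D itself (specific and common), it was 2.83 peaks per Mb inside, 0.555 between 10 and 50 kb away, 0.63 between 50 and 100 kb, 0.471 between 250 and 500 kb, 0.311 between 1000 and 2000 kb and 0.203 beyond. Within the first 10 kb only 1 peak was found in 8.11 Mb (0.123 per Mb, interval 0.00312 to 0.687). Around all superenhancers of 231Pa and 231-D the first 10 kb had 1 peak in 11.3 Mb, 0.163 times the density between 10 and 100 kb (50 peaks, interval of the ratio 0.00404 to 0.949). This ratio rests on 1 peak. The density just outside a superenhancer also depends on where the authors' calling set its edges. The rules for that are not given, here or for 231Pa_Luc+OCT-2, and their part in the drop was not tested. Common regions taken alone had 0.273 per Mb within 10 kb (that same peak) and 0.279 between 10 and 50 kb. Around MDA-MB-436 superenhancers the first 10 kb had 0.376 per Mb (4 peaks, interval 0.102 to 0.963) against 0.459 between 10 and 50 kb (interval 0.272 to 0.726), so no dip was shown there.

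**Figure D5:**
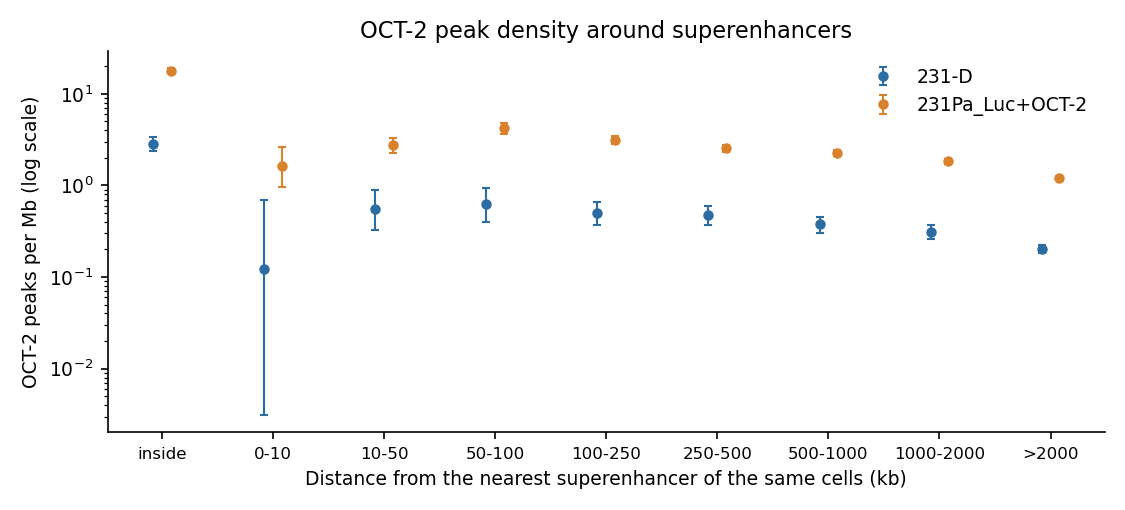
OCT-2 peaks per Mb (y axis, log scale) inside superenhancers of the same cells and in bands of distance from them (x axis, kb), for 231-D (blue) and 231Pa_Luc+OCT-2 (orange), with exact Poisson 95% intervals. Both are highest inside (2.83 and 17.9 per Mb), drop in the first 10 kb (0.123 and 1.64), are higher again at 50 to 100 kb (0.63 and 4.21) and fall beyond.

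For 231Pa_Luc+OCT-2 the bands ran in a similar order around the superenhancers of those cells in hg38, with 17.9 per Mb inside, 1.64 within 10 kb (17 peaks, interval 0.958 to 2.63), 4.21 between 50 and 100 kb (interval 3.63 to 4.85) and 1.21 beyond 2000 kb. Relative to each list's mean density, the inside was 9.27 times as dense in 231-D and 9.43 times in 231Pa_Luc+OCT-2. The share of peaks in superenhancers of the same cells was 14.1% (129 of 917, interval 11.9 to 16.5%) and 15.8% (904 of 5736, interval 14.8 to 16.7%). The difference was -1.69 percentage points with an interval from -4 to 0.878, so the lists were not shown to differ in this share, and a gap of up to 4 points is within the interval.

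The surroundings of the classes were compared within 100 kb. Outside every superenhancer of 231Pa and 231-D but within 100 kb of a class, there were 30 peaks in 41.3 Mb around 231-D-specific regions (0.727 per Mb, interval 0.49 to 1.04), 12 in 34.6 Mb around common ones (0.347 per Mb, interval 0.179 to 0.607) and 12 in 29.2 Mb around 231Pa-specific ones (0.411 per Mb, interval 0.212 to 0.718). The ratio of common to 231-D-specific surroundings was 0.478 (interval 0.223 to 0.961), and that of 231-D-specific to 231Pa-specific ones 1.77 (interval 0.879 to 3.79). These intervals are not adjusted for the 3 ratios, and the densities' own intervals overlap. A count by bands of distance kept peaks and sequence inside superenhancers of the other classes, unlike the densities above. By that count, 231-D-specific and common surroundings had 0.824 and 0.458 per Mb between 50 and 100 kb. Between 250 and 500 kb the order was the other way, with 0.451 per Mb around 231-D-specific and 0.556 around common regions. In both bands the intervals overlap. Of the 174 231-D-specific superenhancers without a peak inside, 24 had one within 100 kb, against 12 of 135 231Pa-specific and 8 of 127 common ones. At the same time, 72 of the 225 231-D-specific regions (32%) were more than 1 Mb (1000 kb) from any OCT-2 peak, and so were 60 of 158 231Pa-specific (38%) and 53 of 183 common ones (29%).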

How the data were processed

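Chromatin was precipitated with 5 µg of antibody and libraries had 15 PCR cycles, per the labels' protocols. Bowtie2 2.2.2.6, Bowtie, HOMER and bedtools are named in the submitters' processing notes; they give no thresholds, input use or filters. The authors deposited merged region lists with start, end and a name, without counts or signal. Build hg19 is named for the 231Pa and 231-D lists. The MDA-MB-436 lists name none: 1, 5 and 6 of their regions ended beyond the last gene of hg38 (GRCh38.p14), as none of the hg38 lists did. Of the 324 common regions, 170 overlapped the 231Pa and 231-D lists in hg19 and 58 the superenhancer lists in hg38. The numbers were 29 and 13 for MDA-MB-436_Luc2-specific and 25 and 12 for MDA-MB-436_Luc2_No3a-specific regions. The MDA-MB-436 lists were therefore read as hg19, which is inferred.

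A peak counted as inside with an overlap of 1 bp or more. Chromosome spans ended at the furthest region of any hg19 list, and density bands used a 1 kb grid. Shares have Clopper-Pearson, densities exact Poisson and ratios exact conditional intervals; odds ratios have Woolf intervals, and the difference of shares a Newcombe interval. Classes were compared in their share of superenhancers with a peak by Fisher exact tests (two-sided; within width quartiles, an exact conditional test), Benjamini-Hochberg adjusted over 3 comparisons; p-values measure spread between regions, not between libraries. Named regions are the 10 clusters with most peaks (ties by peaks per kb), superenhancers with 3 or more peaks, the 5 widest and 5 farthest peaks and the extreme 3 chromosomes at each end. The members, lists and comparisons were chosen with earlier results of these data known. Functions were tested on simulated regions. Tools were statsmodels 0.14.6, scipy 1.17.1, pandas 2.3.3, matplotlib 3.10.9 and numpy 2.4.6 under Python 3.11.15.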

Additional observations from a re-analysis of the deposited data

How the results depend on the processing

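The share of peaks in each of the 6 superenhancer lists stayed within its interval in all 36 alternatives run (peak centre or 50% of the peak inside, regions extended by 10 kb, neighbours as 1 locus, narrower or wider peaks), as did the 6 named chromosome densities in 12. Peaks had a median width of 242 bp and superenhancers of 231Pa and 231-D one of 97.5 kb. The centre and 50% settings could therefore hardly change the shares. Median distances to the 231Pa and 231-D superenhancers measured between centres stayed within the quartiles of the distances between edges in all 4 cases. Clusters went from 49 to 24 with a gap 4 times smaller and to 69 with a gap of 100 kb. Peaks in no superenhancer rose from 78% to 83.1% when the MDA-MB-436 lists were left out. Among 18 alternatives of the 3 class comparisons, 15 kept their direction and side of the threshold. Within width quartiles 231-D-specific against 231Pa-specific regions passed it (odds ratio 2.15, exact conditional test, adjusted p = 0.015). Without regions that meet MDA-MB-436 ones, a setting added after seeing the data that leaves fewer regions, common against 231Pa-specific regions did not pass (odds ratio 1.85, adjusted p = 0.15, Fisher exact test) and common against 231-D-specific ones reversed (odds ratio 0.931, adjusted p = 0.87, Fisher exact test). Leaving out a replicate could not be run, since each list merges replicates. No paired analysis was possible because the lists hold no value per replicate. Peak height and depth are unknown, so weak and strong sites count alike.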

Other observations

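In windows of 10 Mb the OCT-2 peaks of 231-D were uneven within chromosomes too. Of 313 windows, 50 (16%) held no peak, the median was 2 and the most was 15, on chromosome 1 between 90 and 100 Mb, where 5 of the 15 lay in superenhancers of 231Pa or 231-D. The next were chromosome 5 between 30 and 40 Mb with 14 peaks, 5 of them in such superenhancers, and chromosome 8 between 120 and 130 Mb with 13, of which 6 were. Some rich windows had few peaks in superenhancers of 231Pa or 231-D: chromosome 19 between 10 and 20 Mb had 11 peaks and chromosome 7 between 20 and 30 Mb had 10, with 0 and 1 inside. Superenhancers of MDA-MB-436 were not counted in these windows, and some of these peaks of chromosome 19 lay in them. The 88 windows with 3 or more superenhancers of 231Pa or 231-D had a median of 4.5 peaks, and the 99 windows with none a median of 1. The windows named by position were picked out after their values were seen. Assembly gaps were not removed from any window, the empty ones and those without superenhancers included.

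The longest stretches between neighbouring peaks were on chromosome 9 (38376315 to 72048454, 33.7 Mb), on chromosome X (104559495 to 134654363, 30.1 Mb, and 71493072 to 101231927, 29.7 Mb), on chromosome 16 (24987057 to 53164673, 28.2 Mb) and on chromosome 7 (103047765 to 130756868, 27.7 Mb). Assembly gaps were not removed from these stretches.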
